A study of Mus musculus with 8 samples.

Results

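Open chromatin was described at 7 mouse genes of the inflammasome sensor system, Naip1, Naip2, Naip5, Naip6, Nlrc4, Aim2 and Pycard, in alveolar macrophages (AMs) with and without the retinoid X receptors RXRα and RXRβ. ATAC-seq maps open chromatin by the cuts of the transposase Tn5. The regions were all peaks overlapping the gene bodies of GENCODE M21 plus 20 kb on each side (mm10), merged across libraries where they shared a base. Together they made 51 of the 82424 merged regions of the series: 13 at Naip2, 7 at Naip5, 1 at Naip6, 6 at Naip1, 5 at Nlrc4, 21 at Aim2 and 4 at Pycard, with 6 regions lying in the windows of both Naip2 and Naip5. The study compared 4 libraries of CD11cCre+ Rxrab fl/fl mice (KO, replicates 1_2, 1_3, 2 and 3) with 4 libraries of CD11cCre- Rxrab fl/fl mice (WT, replicates 1_2, 1_3, 3 and 4). Both genotypes carried the floxed alleles of Rxra and Rxrb on a C57BL/6J background, so WT AMs had the loxP sites but no Cre, and all AMs were sorted from bronchoalveolar lavage of adult mice. Cre was driven by the promoter of CD11c, an integrin gene that dendritic cells also use. The labels call the samples individual biological replicates but leave unsaid if 1_2 and 1_3 came from separate animals. If they share an animal, the p-values below measure in part the spread between technical repeats.

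NAIP proteins are cytosolic receptors for parts of bacteria. NAIP5 and NAIP6 bind flagellin, NAIP1 binds the needle protein of type III secretion systems, and NAIP2 binds their inner rod protein. A NAIP with its ligand makes NLRC4 assemble into a wheel-shaped complex that recruits caspase-1, which cleaves gasdermin D to open pores and matures the cytokines IL-1β and IL-18. AIM2 detects double-stranded DNA in the cytosol and recruits ASC, the adaptor encoded by Pycard, which joins sensors to caspase-1. AMs meet inhaled bacteria first, and Naip5 is the gene at the mouse locus for resistance to Legionella. RXRs are nuclear receptors that bind DNA with partners such as PPARγ, which AMs need for their identity, at repeats of the half-site AGGTCA.

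The 4 Naip genes lie side by side on the minus strand of chromosome 13 and share sequence at the open regions of their starts, so that reads from one gene can be told from those of another only where bases differ. In local alignments of the start regions, Naip5 and Naip6 were 97.4% identical across 545 columns. Over a shorter stretch of 433 columns each, Naip2 was 94.9% identical to Naip6 and 93.3% to Naip5, and Naip1 was 73.6% identical to Naip2 across 220 columns. These alignments leave out copies outside the 4 start regions. Only 47.3% of the 50 bp sequences in the Naip1 start region occur once in the genome, the lowest share of the 4. The coding sequences gave another order, since Naip1 was 92.0% identical to Naip5 and Naip2 only 87.4%.

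Peaks at the deleted genes and the cell identity were checked first. In an intron of Rxra a region at chr2:27744546-27744950 had a peak in 4 of 4 WT libraries, with 38, 46, 38 and 42 tags, and in 0 of 4 KO libraries, whereas a promoter region of Rxrb had a peak in all 8. Whether the Rxra region lies between the loxP sites was not tested, and the peaks at Rxrb did not show its deletion. Of 10 AM marker genes, 9 had a promoter peak in all 8 libraries, Chil3 being the exception, as did 3 of 4 monocyte, 2 of 4 neutrophil and 2 of 3 epithelial genes, and none of 3 T cell, 3 B cell and 2 endothelial genes. The lists held 60363 to 72484 peaks per library over a background of 1.12 to 2.26 tags per 200 bp, and the longest list and highest background were those of WT replicate 1_3.

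Accessibility at the 7 genes was mostly shared between genotypes. Of the 51 regions, 33 (64.7%) had a peak in all 8 libraries, against 57.6% of all merged regions, and 46 had one in at least 2 libraries. No region had a peak in 4 WT and 0 KO libraries, which 0.82% of the consensus regions (all those found in 2 or more libraries) had, or in 4 KO and 0 WT libraries, which 0.285% had. In single libraries the number of regions with a peak was 37, 41, 37 and 39 in KO and 41, 47, 41 and 37 in WT, so the genotypes overlapped. Absence of a peak says only that the threshold of a q-value of 0.05 was not reached.

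**Figure D1:**
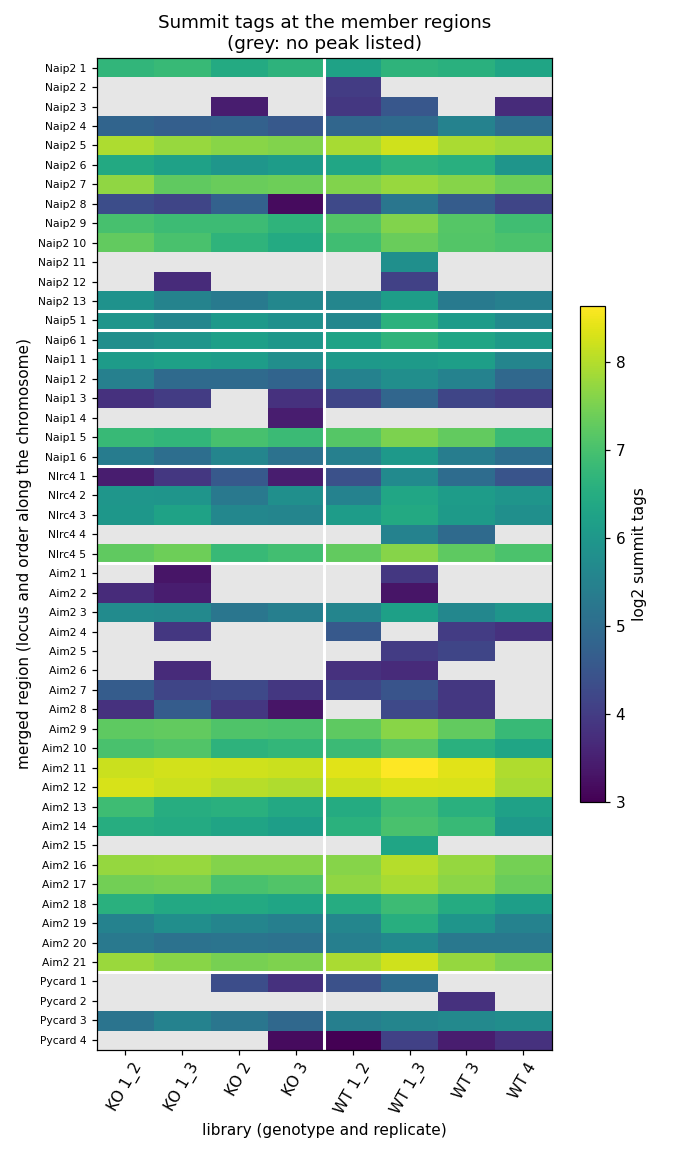
Summit tags (log2 colour scale) of the 51 regions in the 8 libraries, with rows ordered by locus and position along the chromosome and columns by genotype and replicate. Grey cells are libraries without a peak, regions in the windows of both Naip2 and Naip5 stand under Naip2, and 33 rows are filled in all 8 columns.

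The height of a peak was given in summit tags, the number of read ends, each extended to 200 bp, that overlap the peak's summit. These whole numbers were worked back from the fold enrichment and the −log10 p-value of each peak, and they grow with the depth of a library. For the comparison of genotypes, log2(tags + 0.5) was taken relative to the median of its library and tested with limma over the 47499 regions found in all 8 libraries, with Benjamini-Hochberg adjustment over all of them. Log2 differences below are KO minus WT on that scale. Tags are given in the order of KO replicates 1_2, 1_3, 2 and 3 and of WT replicates 1_2, 1_3, 3 and 4.

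Among the Naip genes, the start of Naip2 had the most summit tags, which were not corrected for repeated sequence. Its region (chr13:100201731-100202365, over the first exon) had 128, 116, 117 and 102 tags in KO and 140, 191, 143 and 120 in WT, which is 116 ± 10.7 and 148.5 ± 30.1 tags (SD, n = 4). The ranges overlapped, and the centred values differed by −0.13 (95% interval −0.32 to 0.07, limma adjusted p = 0.423). The highest region of Naip2 was in an intron (chr13:100152614-100153054), with 247, 219, 200 and 191 tags in KO and 238, 299, 242 and 226 in WT. It was ahead of the start region in every library, and the genotypes differed by −0.01 (95% interval −0.18 to 0.15, limma adjusted p = 0.937).

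Naip5 and Naip6, the flagellin receptors, each had a lower peak at the start. The region of Naip5 (chr13:100246906-100247515, upstream of the GENCODE start and over the RefSeq start) had 61, 48, 65 and 57 tags in KO and 49, 99, 68 and 52 in WT. The groups overlapped, WT replicate 1_3 was the highest and KO replicate 1_3 the lowest, and the difference was 0.05 (95% interval −0.25 to 0.35, limma adjusted p = 0.872). The 50 bp at its summit occur 2 times in the genome. At Naip6 the region at the GENCODE start (chr13:100317320-100317863) was the only region of the whole window. It had 55, 61, 73 and 63 tags in KO and 77, 102, 79 and 67 in WT. No region lay over the RefSeq start of Naip6, which is 1085 bp from this summit. WT values were mostly the higher ones before centring, yet KO replicate 2 exceeded WT replicate 4, and the centred difference of −0.14 did not pass the test (95% interval −0.41 to 0.13, limma adjusted p = 0.535).

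Naip1, the needle receptor, stood lowest at its start. The region 0.236 kb inside the gene (chr13:100452459-100452784, intron) had 41, 33, 47 and 35 tags in KO and 44, 66, 42 and 33 in WT, and the groups overlapped with a difference of 0.00 (95% interval −0.34 to 0.34, limma adjusted p = 0.995). The highest Naip1 region, 3.156 kb from the start in an intron (chr13:100449468-100450014), had 111, 104, 127 and 115 tags in KO and 143, 184, 155 and 113 in WT. Its means of 114 tags in KO and 149 in WT were close to those of the Naip2 start, and its difference was −0.15 (95% interval −0.36 to 0.06, limma adjusted p = 0.385). Ordered by WT mean, the Naip starts ran from Naip2 (148.5 tags) over Naip6 (81.2) and Naip5 (67.0) to Naip1 (46.2). Naip6 and Naip5 overlapped, as did Naip5 and Naip1, while the lowest Naip2 library (120) was above the highest Naip6 library (102).

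**Figure D2:**
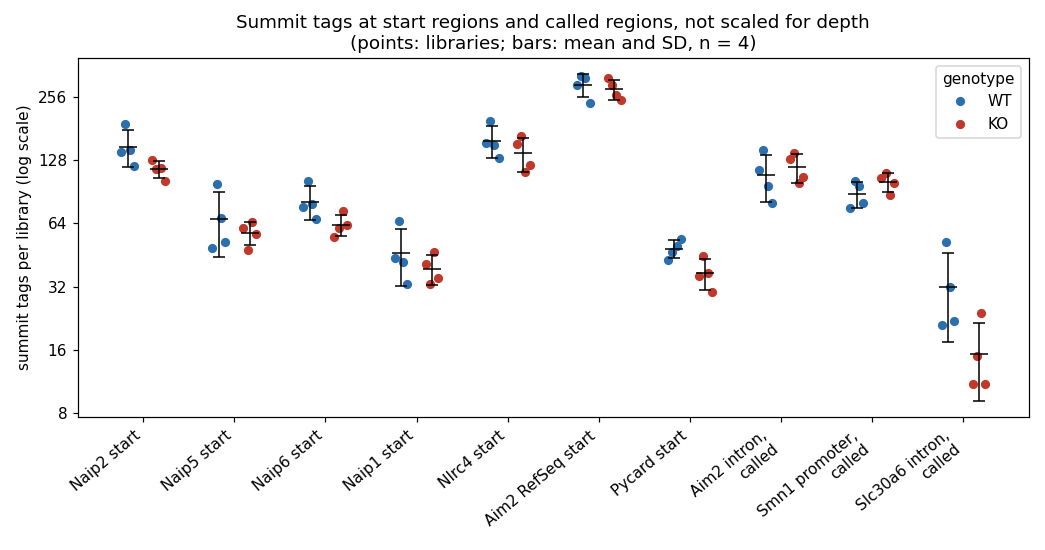
Summit tags per library (log scale, not scaled for depth) at the start regions of the 7 genes and at the 3 regions that passed the test, with WT and KO side by side, points for libraries and bars for mean and SD (n = 4). Aim2 is shown at its RefSeq start, named after its values had been seen. Its weak GENCODE start, with a peak in 2 KO libraries and 1 WT library, is not shown. With that choice the Aim2 and Nlrc4 starts stand highest and the Naip1 and Pycard starts lowest. The points of KO and WT overlap at each of the 7 starts shown.

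Repeated sequence limits mapping in the Naip cluster. Reads were pairs of 50 bases, and alignments of a mapping quality of 30 or less were removed. A read in repeated sequence can still be placed through a unique mate, so the shares below describe single reads. Their part in the number of peaks was not tested. Within the windows, 50 bp sequences found once in the genome made up 90.2% at Naip2, 85.9% at Naip1, 64.8% at Naip5 and 51.5% at Naip6, against 91.9% at Nlrc4, 96.1% at Aim2 and 96.5% at Pycard. At Naip6 a further 27.5% of the window was repeated only inside the cluster, 15.1% at Naip5, 6.71% at Naip1 and 3.77% at Naip2. Among 18 other genes of the pathway the median was 94.0% and the lowest values were 77.5% at Nlrp1b and 77.8% at Nlrp1a, so Naip5 and Naip6 were below all of them.

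The sparsest stretches of the cluster were also those with the most repeats. Over the 348.807 kb from the Naip2 to the Naip1 window, 125 of 349 bins of 1 kb were at least 90% unique and held 15 of 22 summits. The 143 bins that were 50 to 90% unique held 6 summits, the 81 bins under 50% held 1, and the 24 bins under 10% held 0. No region lay in 69.804 kb between the starts of Naip5 and Naip6 (53.0% unique) or in the next 61.862 kb (54.9% unique), and the pseudogenes Naip3-ps1 and Naip3 in these stretches had 0 regions. A stretch of 39.945 kb inside Naip1 was also without a region, and 83.5% of its sequence is unique. Per 100 kb of unique sequence the windows held 14.7 regions at Naip2, 14.5 at Naip5, 8.20 at Naip1 and 2.54 at Naip6, beside 7.39 at Nlrc4, 14.1 at Aim2 and 9.39 at Pycard.

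**Figure D3:**
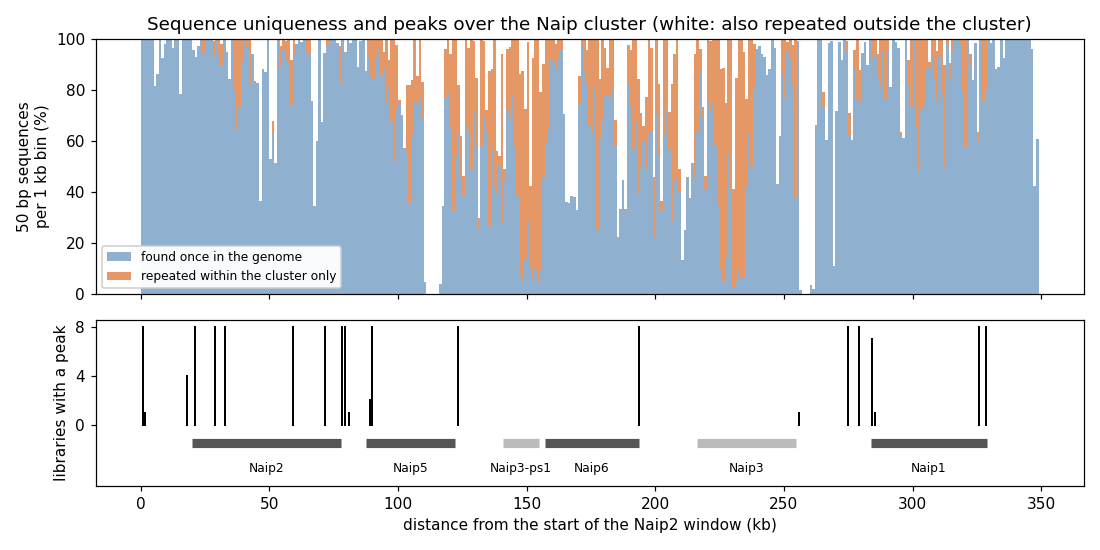
Percentage of 50 bp sequences per 1 kb bin that are found once in the genome (blue) or repeated within the cluster only (orange), above the number of libraries with a peak at each region and the gene bodies, along the distance in kb from the start of the Naip2 window. Regions are dense over Naip2, and the Naip6 start stands alone between 69.804 kb and 61.862 kb without a region.

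The summits lay mostly in sequence found once, which the removal of alignments of low mapping quality favours. The 50 bp at the summit were unique for 50 of 51 regions and for 20 of 21 regions of the Naip genes, against 99.3% over all merged regions. Only exact copies were counted, so copies that differ by single bases count as unique. Over their whole length the start regions of Naip2, Naip5, Naip6 and Naip1 were 71.5%, 67.2%, 58.6% and 47.3% unique, and the part of this in the order of the Naip levels was not tested.

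Nlrc4, the shared partner of all NAIPs, had an open start and 3 further regions within the gene. The promoter is shown because its region was the tallest of the locus, from the upstream side to the first annotated exon (RefSeq promoter, GRCm38.p6, minus strand, chr17:74459143-74459358, no capitals because no motif searched was matched).
Nlrc4: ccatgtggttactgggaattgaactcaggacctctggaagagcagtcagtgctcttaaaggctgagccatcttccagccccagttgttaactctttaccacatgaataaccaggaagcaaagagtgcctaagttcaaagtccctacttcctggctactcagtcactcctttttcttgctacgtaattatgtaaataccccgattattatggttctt
The region over it (chr17:74458734-74459457) had 153, 167, 112 and 122 tags in KO and 155, 197, 152 and 131 in WT. The groups overlapped with a difference of 0.01 (95% interval −0.18 to 0.21, limma adjusted p = 0.948), and both regions of the gene's introns that had a peak in all 8 libraries differed by −0.04 and −0.01. The third had a peak in 2 WT and 0 KO libraries.

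The call at this locus was in the flank, in an intron of the zinc transporter gene Slc30a6, 19.197 kb from the nearest start. This region (chr17:74414551-74415040) had 11, 15, 24 and 11 tags in KO and 21, 52, 32 and 22 in WT. Every KO library but replicate 2 was below all WT libraries, and the region was lower in KO by −0.80 ± 0.23 on the log2 scale (SE, limma adjusted p = 0.0139), a fold of 0.576 (95% interval 0.419 to 0.791). Lower tags can mean fewer cells open at a position or less cutting per cell, which bulk libraries cannot tell apart. After centring, KO replicate 2 overlapped with WT, and an exact permutation test on the region alone gave p = 0.0857, two-sided. The limma adjusted p was 0.0784 without KO replicate 1_2, 0.0526 without KO replicate 3 and 0.0880 without WT replicate 1_3. The 201 bases around the summit are shown because they hold a DR1 match with 2 mismatches, in capitals, centred 40 bp from the summit (chr17:74414727-74414927, GRCm38.p6, plus strand).
Slc30a6 intron: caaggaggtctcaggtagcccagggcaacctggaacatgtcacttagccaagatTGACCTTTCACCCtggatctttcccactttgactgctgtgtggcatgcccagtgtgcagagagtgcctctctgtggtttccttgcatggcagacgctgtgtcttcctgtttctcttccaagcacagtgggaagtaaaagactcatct

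The Aim2 window was the longest (155.162 kb) and held the most regions, but per 100 kb it had 13.5, beside 13.3 at Naip2. The tallest Aim2 regions lay around the start given by RefSeq. GENCODE places the 5′ end of Aim2 far upstream of it, close to the gene Cadm3, and the region nearest to that end (chr1:173349975-173350207) was weak, with a peak in 2 KO libraries (13 tags in replicate 1_2 and 11 in replicate 1_3) and in 1 WT library (10 tags in replicate 1_3). The region at the RefSeq start, named here after its values had been seen, was among the tallest of the 51 (chr1:173420318-173420724), and the promoter under it is shown with its match to the PU.1 motif GAGGAAG in capitals (chr1:173420354-173420570, GRCm38.p6, plus strand).
Aim2: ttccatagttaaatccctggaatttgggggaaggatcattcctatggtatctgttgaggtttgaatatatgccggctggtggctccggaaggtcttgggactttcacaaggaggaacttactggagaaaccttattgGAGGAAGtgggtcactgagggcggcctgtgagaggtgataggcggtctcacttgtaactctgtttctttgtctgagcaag
It had 316, 291, 263 and 248 tags in KO and 293, 321, 314 and 240 in WT. These overlapped, but after centring every KO value was above every WT value, with a difference of 0.15 (95% interval −0.01 to 0.31, limma adjusted p = 0.217). The highest region, in an intron (chr1:173418864-173419344), had 290, 305, 298 and 291 tags in KO and 332, 398, 334 and 250 in WT. Its centred values overlapped and differed by 0.08 (95% interval −0.08 to 0.24, limma adjusted p = 0.545).

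One Aim2 region passed the test. It lay in an intron of the long GENCODE transcript (chr1:173411878-173412359), upstream of the RefSeq start, and had 130, 138, 100 and 106 tags in KO and 115, 144, 96 and 80 in WT. The raw tags overlapped, the centred values did not, and KO was higher by 0.36 ± 0.11 on the log2 scale (SE, limma adjusted p = 0.0213), a fold of 1.282 (95% interval 1.101 to 1.491). The call was lost when any of 4 libraries was left out, with a limma adjusted p of 0.0559 without KO replicate 1_2, 0.0844 without KO replicate 1_3, 0.0968 without WT replicate 3 and 0.0501 without WT replicate 4. It was also lost when libraries were scaled by their background instead of their median (limma adjusted p = 0.413). The bases around its summit are shown for the called region and hold none of the motifs searched (chr1:173411977-173412177, GRCm38.p6, plus strand).
Aim2 intron: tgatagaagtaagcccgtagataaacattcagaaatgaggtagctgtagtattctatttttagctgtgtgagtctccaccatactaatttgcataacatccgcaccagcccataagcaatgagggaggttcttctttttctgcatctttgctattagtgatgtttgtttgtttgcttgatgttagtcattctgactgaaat

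How many Aim2 regions were higher in KO depended on the scaling. Of the 13 regions found in all 8 libraries, 5, the called one included, had centred values higher in all KO than in all WT libraries (38.5%), and 0 the reverse, while 8.25% and 7.91% of all 47499 regions did so. After scaling by background, 0 of 13 were higher and 0 lower in KO without overlap (2.20% and 5.88% of all regions). After quantile normalisation, 1 was higher and 1 lower (7.18% and 8.53% of all regions). Both alternatives were added after the data had been seen. Across the locus 7 of the 13 differences were positive and 6 negative, with a median of 0.08. A weak region inside the gene (chr1:173374082-173374343) had a peak in 1 KO library (15 tags, replicate 1_3) and in 3 WT libraries (24, 16 and 14 tags in replicates 1_2, 3 and 4). A region with 80 tags in WT replicate 1_3 alone (chr1:173426738-173426942) lay next to a region that had a peak in all 8 libraries.

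Pycard, the adaptor gene, is short and had 1 region with a peak in all 8 libraries, at its start. The promoter under it is shown with its PU.1 match in capitals, read here as CTTCCTC on the opposite strand (chr7:127993868-127994117, GRCm38.p6, minus strand). The match lies more than 100 bp from the summit, so this region is not among those counted with the motif below.
Pycard: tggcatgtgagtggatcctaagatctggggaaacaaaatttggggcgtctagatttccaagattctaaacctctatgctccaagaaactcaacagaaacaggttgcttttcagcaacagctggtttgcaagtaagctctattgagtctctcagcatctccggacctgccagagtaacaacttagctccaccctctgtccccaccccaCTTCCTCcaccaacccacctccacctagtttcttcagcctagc
The region (chr7:127993400-127994023, over exons of Pycard and of the unclassified transcript Gm45205) had 36, 45, 37 and 30 tags in KO and 43, 47, 50 and 54 in WT. Only KO replicate 1_3 reached the WT range, and after centring the groups overlapped with a difference of −0.18 (95% interval −0.53 to 0.16, limma adjusted p = 0.532). A weak region 3.188 kb from the start of the neighbouring gene Trim72 (chr7:128000579-128000954) had 9 tags in KO replicate 3, no peak in the other KO libraries, and 8, 17, 11 and 14 tags in WT. Without KO replicate 3 it had a peak in WT libraries only.

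The remaining call was again in a flank, over the promoter of Smn1, the gene next to Naip2. This region (chr13:100124664-100125202) had 105, 111, 87 and 100 tags in KO and 76, 102, 96 and 80 in WT. The raw tags overlapped, the centred values did not, and KO was higher by 0.40 ± 0.11 on the log2 scale (SE, limma adjusted p = 0.0130), a fold of 1.324 (95% interval 1.128 to 1.553). The limma adjusted p was 0.0596 without KO replicate 3, 0.0531 without WT replicate 1_2 and 0.314 after scaling by background. On the same side of Naip2, outside genes, a weak region (chr13:100141947-100142243) had 11 tags in KO replicate 2 and 15, 23 and 13 in WT replicates 1_2, 1_3 and 4, with no peak elsewhere. A region with 56 tags in WT replicate 1_3 alone (chr13:100204684-100204950) lay upstream of Naip2.

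The share of regions called at the 7 genes was near that of the whole genome. Of the 33 regions tested, 1 was lower and 2 were higher in KO (9.09% in all), against 7.03% lower and 5.81% higher, 12.8% in all, of the 47499 regions. Scaling by background gave 1 lower and 0 higher here. Over all regions it lowered both shares, to 4.19% lower and 1.21% higher, so that the lower ones made up 77.6% of the calls instead of 54.7%. The median difference was −0.01 at these regions and 0.04 over all, and the median size of a difference 0.14 against 0.16. The differences ran from −0.80 to 0.40, 18 of them negative and 15 positive, and 6 (18.2%) had an unadjusted p under 0.05, against 26.2% of all regions. Values centred on medians did not overlap in 7 of 33 regions, all higher in KO, 5 at Aim2, 1 at Naip2 and 1 at Naip1, against 8.25% of all regions, while quantile normalisation gave 3 higher and 2 lower and background scaling 0. By presence of peaks, 3 of the 46 regions found in 2 or more libraries (6.52%, beside 5.05% of the consensus regions) had one in at least 3 WT and at most 1 KO libraries, and 0 had the reverse (2.03% of all).

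**Figure D4:**
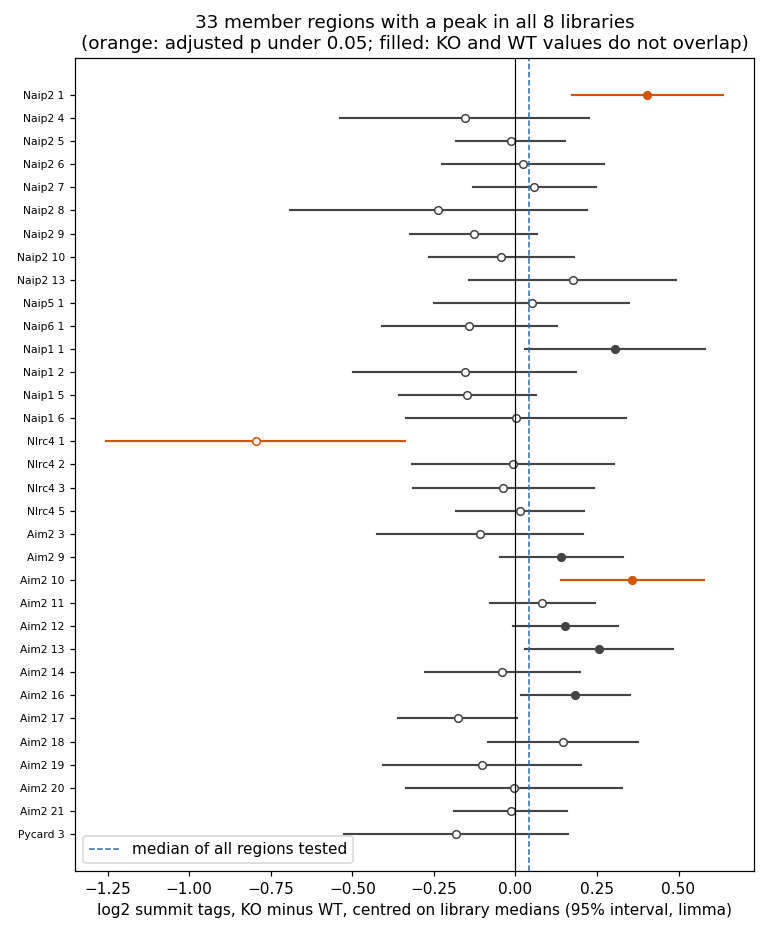
Log2 difference in centred summit tags, KO minus WT, with 95% intervals from limma, for the 33 regions found in all 8 libraries, in the order of the loci along the y axis. Orange marks the 3 called regions, filled points the 7 regions whose KO and WT values do not overlap under median centring, and the dashed line the median of 0.04 over all 47499 regions.

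Motifs were counted within 100 bp of the summits on both strands, in the 46 regions found in 2 or more libraries. The PU.1 motif GAGGAAG, for the factor that shapes macrophage enhancers, was in 13 of 46 regions (28.3%), against 23.3% of the consensus regions. AP-1 (TGANTCA) was in 6 (13.0% against 11.9%) and DR1 with at most 2 mismatches in 2 (4.35% against 4.14%). An ISRE-like motif (GAAA repeated after 2 bases), of the kind bound by interferon regulatory factors, was in 4 regions (8.70% against 2.78%). All 4 were at Aim2, which held 20 of the 46 regions. They had a peak in 1 KO and 3 WT, 1 KO and 2 WT, 4 KO and 2 WT, and 4 KO and 4 WT libraries. The Aim2 promoter shown above held no such match. The DR1 pattern written backwards, a control, was in 3 regions (6.52% against 2.88%), the start regions of Naip2, Naip5 and Naip6, where it is the same run of bases counted 3 times. STAT (TTCNNNGAA) and DR4 (half-sites spaced by 4 bases, at most 2 mismatches) were in 1 region each, against 5.98% and 2.63%, and CEBP (TTNCGNAA) was in 0, against 2.27%. DR1 and DR4 share their half-site, so a stretch can match both. Of all 300-base RefSeq promoters, 13.6% hold the PU.1 motif.

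Of the other genes of the pathway, 7 had a called region. The list of 18 genes (6 sensors, 3 caspases, 2 genes of pores and rupture, 4 activators and 3 cytokines) had 119 regions, of which 79 had a peak in all 8 libraries. Of these, 5 were lower and 2 higher in KO (8.86% in all, 12.8% of all regions), and 14 of the 18 genes had a promoter peak in all 8 libraries, Nlrp6, Nlrp12, Mefv and Il1b having none. No region of the sensors Nlrp3, Nlrp1a, Nlrp1b, Nlrp6, Nlrp12 and Mefv, or of Casp1 and Casp4, passed the limma test, although 3 regions of Nlrp3 and 1 each of Nlrp6 and Nlrp12 had an unadjusted p under 0.05. Over all 18 genes 18 of 79 regions (22.8%) did, against 26.2% of all regions.

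These regions lay at Casp8, at the activators P2rx7 and Nek7, and in the windows of the activator Txnip and of Gsdmd, Il1b and Il18. At the promoter of Casp8, a caspase of cell death (chr1:58795206-58795771), the tags were 265, 249, 227 and 181 in KO and 299, 389, 332 and 298 in WT. Every KO library was below every WT library, and the difference was −0.31 ± 0.08 (SE, limma adjusted p = 0.00881). An intron of P2rx7, the ATP-gated channel that triggers NLRP3 (chr5:122649315-122649661, 0.934 kb from a start), had 26, 32, 28 and 27 tags in KO and 41, 53, 54 and 47 in WT, again without overlap, and differed by −0.56 ± 0.17 (SE, limma adjusted p = 0.0226). The stronger of the 2 promoter regions of P2rx7 (mean 91.5 tags) was not called (−0.12, limma adjusted p = 0.558). Regions near Il1b (−0.44, limma adjusted p = 0.00896) and in Nek7, a cofactor of NLRP3 (−0.32, limma adjusted p = 0.0436), were also lower. So was a region in the window of Txnip (−0.44, limma adjusted p = 0.0212), outside genes and 4.88 kb from the start of Gm16253. Higher in KO were a region near Gsdmd (0.46, limma adjusted p = 0.0125), 5.304 kb from the start of Mroh6, and one in the window of Il18 (0.57, limma adjusted p = 0.0366) in an intron of Bco2. After centring on medians, KO and WT overlapped at the regions of Gsdmd and Nek7 and did not overlap at the other 5. Regions called on the same values tend to separate, and over all 47499 regions 8.25% were higher and 7.91% lower without overlap. Over all regions, scaling by background lowered the share called higher in KO from 5.81% to 1.21%. The calls at these genes were not checked under that scaling or without single libraries. These tests speak of accessibility at a position, and no transcripts were measured in these libraries.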

How the data were processed

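The 4 KO and 4 WT ATAC-seq libraries of AMs were grouped by the sample titles and genotypes. As stated in the methods of the study, reads were trimmed with Cutadapt, aligned to mm10 with Bowtie2, filtered for duplicates, proper pairs and a mapping quality over 30, and peaks were called per library with MACS3 (shifted read ends extended to 200 bp, q-value of 0.05). Each list deposited by the authors gives a position, a display score (not used), the fold enrichment as a ratio to the local background, and the −log10 p-value and −log10 q-value. The deposited fold is (tags + 1) / (background + 1) and the deposited −log10 p is that of a Poisson count, so both together gave tags and background. Whole tags came back for 100% of peaks (relative error within 1e-05). The lists hold no read counts, so the count test of the study's methods was not fitted.

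Peaks that overlapped by 1 bp or more were merged. A library's strongest peak stood for a region. The main test was limma 3.58.1 (R 4.3.3, trended prior) on log2(tags + 0.5) centred on library medians, over regions found in all 8 libraries, so values are conditional on a call. It was tested on simulated data. The exact permutation test used 70 labelings (smallest p 0.0286). Uniqueness was counted on both strands over all starts of GRCm38.p6 chromosomes and scaffolds, without patches. Alignments of start regions and coding sequences used Biopython 1.88. Promoter sequences are from RefSeq, which lists a promoter for each of the 7 genes but places the starts of Aim2, Naip5 and Naip6 elsewhere than GENCODE. The sequences of the Naip start regions are not reported here.

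Values in every library were given for the region nearest to each gene's GENCODE start, the highest region of each gene, regions found in 3 or 4 libraries of one genotype and at most 1 of the other, and called regions. Members, gene lists and motifs were chosen with earlier results of these data known. Alternatives varied the scaling, pseudocount, filter, prior, merging, peak threshold, flank and libraries.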

Additional observations from a re-analysis of the deposited data

How the results depend on the processing

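The calls changed with single libraries and settings. Among the 33 regions tested with limma, 1 was lower and 2 were higher in KO, and the same 3 regions were called after quantile normalisation, with a pseudocount of 4 and with a mean of at least 20 tags. Scaling by background tags gave 0 higher, the fit without a trend 0 lower and 1 higher, and replicates 1_2 and 1_3 as 1 sample 0 lower and 1 higher, while leaving out each library gave 0 to 1 lower and 1 to 2 higher. Without a trend the limma adjusted p was 0.0791 at the Aim2 intron and 0.0799 at the Slc30a6 intron, and with 1_2 and 1_3 as 1 sample it was 0.0595 at the Smn1 promoter and 0.0542 at the Slc30a6 intron. The cause was not tested.

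Differences near 0 changed sign. At the Naip2 intron (−0.01 in the report) leaving out each library gave −0.0472 to 0.0308, at the Naip5 start (0.05) −0.0612 to 0.165, at the Naip1 start (0.00) −0.113 to 0.107 and at the Nlrc4 start (0.01) −0.0512 to 0.0876. Scaling by background gave −0.00638 at the Naip5 start, −0.0536 at the Naip1 start and −0.0415 at the Nlrc4 start, where quantile normalisation gave −0.0225 and 1_2 and 1_3 as 1 sample −0.0185. None of these passed the limma test under those alternatives.

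Replicates 1_2, 1_3 and 3 have numbers in both genotypes. The correlations of their deviations were 0.0555, 0.116 and 0.0368, low but each the highest for its library. Whether same-numbered samples share more than a number was not tested. With the replicate number as a block, the 1 lower and 2 higher calls were the same regions (3283 lower and 3600 higher over all, against 3337 and 2759), and the sign changed to 0.0395 at the Naip2 intron, −0.0407 at the Naip5 start and −0.165 at the Naip1 start.

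Counts of regions with a peak in WT libraries only were 0 to 1 when each library was left out, 1 without KO replicate 3, and 0 under the other alternatives run. The number of regions was 45 with a flank of 5 kb, 39 in gene bodies alone and 50 at a −log10 q of at least 5. Regions without overlap were 7 higher and 0 lower in KO of 33 under median centring (8.25% and 7.91% of all regions), 0 and 0 with background scaling (2.20% and 5.88%) and 3 and 2 with quantile normalisation (7.18% and 8.53%). With 100 bp sequences in place of 50 bp, the unique share was 97.4% at Naip2, 81.4% at Naip5, 76.6% at Naip6, 95.02% at Naip1, 99.1% at Nlrc4, 99.2% at Aim2 and 99.3% at Pycard. Depth limits the weak regions, since the smallest summit called was 6 to 9 tags, and counts of tags cover counting of reads only.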
